A study of Vitis vinifera with 6 samples.

Results

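The genes described here are 10 tandem copies of flavonoid 3',5'-hydroxylase (F3'5'H) that share 1 stretch of locus names on grapevine chromosome 6. They were chosen by locus name, from VIT_06s0009g02810 to VIT_06s0009g03050, and each of the 10 was represented by 1 probe among the 34369 probes of the array that are not controls. F3'5'H is a cytochrome P450 that adds hydroxyl groups to the B ring of flavonoids. Its products lead to the delphinidin type of anthocyanins, which give grapes their blue and purple tones, and to the matching flavonols and tannin units. The related flavonoid 3'-hydroxylase leads to the red cyanidin type of anthocyanins. In grapevine the enzyme is known for a family expanded by tandem duplication and for its activity in the berry skin of red cultivars. The files name loci only. In the RefSeq gene table of grapevine, 2 genes carry the symbol or synonym F3'5'H, both on chromosome 6, but 0 of the array's locus names occur in that table, so that the names of the 10 loci rest on the list by which they were chosen, and no sequence or position is given for them.

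The study compared fully expanded leaves of transgenic plants carrying an overexpressed VviCARPO, which encodes a NAC transcription factor, with leaves of control plants, 3 biological replicates each. All plants were of the red cultivar Syrah, had been raised from calli of anthers and stood in a greenhouse. The labels speak of selected transgenic lines, but give neither the line of each replicate nor the promoter of the transgene. RNA was labelled with Cy3 and hybridised to 1 Agilent array per sample. Precision is limited by this number of arrays. Levels are given as multiples of the 75th percentile of spot intensity on the same array, or as the log2 of that multiple, and they can be compared between arrays for 1 probe but not between probes.

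Some facts about the arrays bear on every value below. The probe of VIT_08s0007g07670, taken as CARPO from knowledge outside the labels and files, had a level of 0.0152, 0.0123 and 0.294 times the 75th percentile on the arrays labelled OX.CARPO 1, 2 and 3, against 0.0136, 0.0616 and 0.0245 on control arrays 1, 2 and 3. It was thus high on labelled OX.CARPO 3 alone, and by itself does not bear out the label of the other labelled arrays. The probe was dim, with spot intensities of 10.1 and 15.1 on labelled OX.CARPO 1 and 2. Its sequence was not used, and whether it detects RNA of the transgene was not tested. For this reason "labelled OX.CARPO" is used throughout, and each direction is that of the label. Labelled OX.CARPO 3 also stood apart over 18929 probes, with a Pearson's r of 0.810 to 0.854 with the other arrays, while pairs without it had 0.883 to 0.974. It was the only array on its slide and in its scan. Scan 1 held labelled OX.CARPO 1 and control 1, and scan 2 held labelled OX.CARPO 2 and controls 2 and 3. No spot of the 10 loci was marked as an outlier or as saturated (0 of each). Leaf markers could not be tied to probes, and the tissue was not checked. In whole leaves, fewer cells of a type and less RNA per cell cannot be told apart.

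In leaves, 8 of the 10 F3'5'H loci were well above background on all 6 arrays, by the mark that the scanner software gives each spot, as were 62.2% of all probes. They were VIT_06s0009g02810, VIT_06s0009g02830, VIT_06s0009g02840, VIT_06s0009g02860, VIT_06s0009g02880, VIT_06s0009g02920, VIT_06s0009g02970 and VIT_06s0009g03050. A ninth copy, VIT_06s0009g03010, was well above background on all controls and on 2 of the 3 arrays labelled OX.CARPO, the exception being labelled OX.CARPO 3. The tenth, VIT_06s0009g02910, was not well above background on any array, which 18.2% of all probes shared. With a looser mark of the same software, or with the 95th percentile of the negative control spots as the limit, 9 loci counted as present on all 6 arrays, and with the 99th percentile 7 did. VIT_06s0009g03050 was dim, with spot intensities of 13.9 to 53.1. Its 15.1 on labelled OX.CARPO 2 lay below the 99th percentile of negative control spots there, 18.9. Near-identical tandem copies can share signal between probes. Because no probe sequence was used here, the signal of a probe cannot be assigned to 1 copy with certainty.

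Each of 8 F3'5'H loci, all but VIT_06s0009g03050 and VIT_06s0009g02910, was lower on every array labelled OX.CARPO than on every control array. For the 7 of them that were well above background on all 6 arrays, the fitted log2 differences, labelled OX.CARPO minus control, ran from -2.61 to -2.20 with a median of -2.33, so that controls were between 4.58 and 6.12 times higher. The eighth, VIT_06s0009g03010, was at -3.62. It was tested through its control spots, was not well above background on labelled OX.CARPO 3, and was left untested when all 6 arrays had to be well above background. None of the 9 loci tested (0) passed limma's Benjamini-Hochberg adjusted p of 0.05. The adjusted p of the 8 was between 0.157 and 0.354, and 7 of them had an unadjusted p under 0.05. The groups failed to overlap in this direction at 13.7% of the 21507 probes tested with 6 usable spots. Of all probes tested, 9.21% had a lower level at a limma unadjusted p under 0.05, and 0.0632% passed the adjusted threshold as lower. Of all probes tested, 0.08% passed in either direction, 0.0168% as higher, and 5.85% were higher at an unadjusted p under 0.05. The 7 loci well above background on all 6 arrays were at least 4-fold lower in the fit, as were 2.48% of all probes tested. So was VIT_06s0009g03010, through its spot not well above background. Without labelled OX.CARPO 3 the 8 differences were -2.02 to -1.53, so that all but VIT_06s0009g02810 were less than 4-fold lower. The share of all probes at 4-fold was not counted in that fit. The median difference over all 23752 probes tested was 0.0038.

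**Figure D1:**
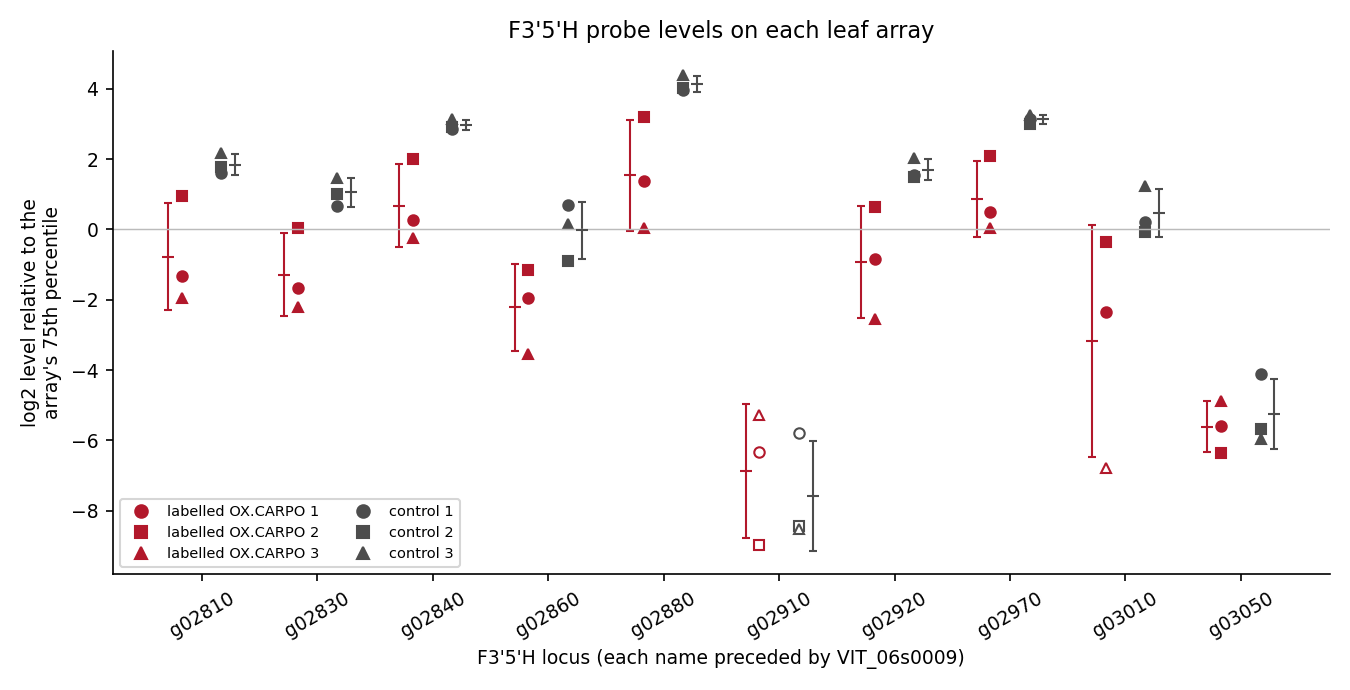
Log2 level of each F3'5'H probe relative to the array's 75th percentile, for the 3 arrays labelled OX.CARPO (red, left of each pair) and the 3 control arrays (grey), with the mean and SD of each group as a bar beside the points. Open points were not well above background. At 8 of the 10 loci all red points lie below all grey points, and at g02910 and g03050 the groups overlap.

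VIT_06s0009g02880 had a level of 2.59, 9.19 and 1.04 times the 75th percentile on labelled OX.CARPO 1, 2 and 3, against 15.7, 16.3 and 21.1 on controls 1, 2 and 3. VIT_06s0009g02970 had 1.42, 4.25 and 1.02, against 8.80, 7.95 and 9.48 in controls. VIT_06s0009g02840 had 1.20, 4.0 and 0.852, against 7.28, 7.55 and 8.75 in controls. In these 3 copies labelled OX.CARPO 2 was the nearest to the controls and labelled OX.CARPO 3 the farthest, while the controls lay close together. The log2 level of VIT_06s0009g02970 averaged 0.87 ± 1.08 on the arrays labelled OX.CARPO and 3.12 ± 0.13 in controls (SD, n = 3 each), a difference of -2.25 (SE 0.54, 95% confidence interval -3.56 to -0.95, limma adjusted p 0.157), the lowest adjusted p of the cluster. For VIT_06s0009g02840 the difference was -2.29 (SE 0.58, limma adjusted p 0.167), and for VIT_06s0009g02880 it was -2.59 (SE 0.77, limma adjusted p 0.210).

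VIT_06s0009g02810 had a level of 0.401, 1.95 and 0.257 times the 75th percentile on labelled OX.CARPO 1, 2 and 3, against 3.02, 3.41 and 4.48 on controls 1, 2 and 3. VIT_06s0009g02920 had 0.560, 1.55 and 0.171, against 2.94, 2.79 and 4.09 in controls. VIT_06s0009g02830 had 0.312, 1.03 and 0.216, against 1.58, 2.02 and 2.77 in controls. The order of the 3 arrays labelled OX.CARPO was again the same, and control 3 was the highest array at each of these 3 copies. The log2 differences were -2.61 (SE 0.75, limma adjusted p 0.201) for VIT_06s0009g02810, -2.61 (SE 0.77, limma adjusted p 0.211) for VIT_06s0009g02920 and -2.33 (SE 0.61, limma adjusted p 0.175) for VIT_06s0009g02830.

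VIT_06s0009g02860 varied more among controls. Its level was 0.257, 0.452 and 0.0853 times the 75th percentile on labelled OX.CARPO 1, 2 and 3, against 1.61, 0.537 and 1.10 on controls 1, 2 and 3. Control 2 was close to labelled OX.CARPO 2, with a gap of 0.25 on the log2 scale, the smallest among the 8 loci, whose gaps reached 0.90. The log2 difference of -2.20 (SE 0.70, limma adjusted p 0.237) was the smallest of the 8 in size.

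VIT_06s0009g03010 had a level of 0.195, 0.784 and 0.00905 times the 75th percentile on labelled OX.CARPO 1, 2 and 3, against 1.17, 0.951 and 2.33 on controls 1, 2 and 3. Its spot on labelled OX.CARPO 3, not well above background, lay far below the other two. The log2 difference of -3.62 (SE 1.57, limma adjusted p 0.354) had the widest error of the cluster and rests on that spot. It was -1.46 with normexp background correction, and without that array it was -1.81 (SE 0.70, limma adjusted p 0.249).

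The remaining 2 copies had groups that overlapped. VIT_06s0009g03050 had a level of 0.0208, 0.0123 and 0.0341 times the 75th percentile on labelled OX.CARPO 1, 2 and 3, against 0.0583, 0.0195 and 0.0160 on controls 1, 2 and 3. Control 1 was the highest array and labelled OX.CARPO 3 the next, so that neither group lay below the other. The log2 difference of -0.36 (SE 0.61, 95% confidence interval -1.83 to 1.12, limma adjusted p 0.811) did not exceed the SD of either group, and its sign turned in 3 of the alternatives given in the closing section. VIT_06s0009g02910 had a raw spot intensity of 8.34, 2.46 and 23.8 on labelled OX.CARPO 1, 2 and 3, against 16.5, 2.36 and 2.84 on controls 1, 2 and 3, all not well above background, so that no fold is given and it was not tested.

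For each of the 8 loci whose groups did not overlap, an exact two-sided permutation test over the 6 arrays gave p = 0.1, the smallest that 3 arrays against 3 allow. That value follows from the lack of overlap by which they were chosen, so it is no further support. Of probes tested with 6 usable spots, 13.7% were lower and 10.5% higher without overlap, and have the same p. The same exact test gave p = 0.7 for VIT_06s0009g03050. The spread was wider on the labelled side. The SD of the log2 level was larger among the arrays labelled OX.CARPO than among controls at all 8 loci, with medians of 1.38 and 0.30, and over 21507 probes with 6 usable spots these medians were 0.53 and 0.25.

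Set against the control mean of each locus, the 8 copies were at a like share within labelled OX.CARPO 2 and spread more widely on the other labelled arrays. On labelled OX.CARPO 2 they were at 45.9% to 57.1% of the control mean (median 50.3%), on labelled OX.CARPO 1 at 11.2% to 26.1% (median 15.2%) and on labelled OX.CARPO 3 at 0.659% to 11.7% (median 7.93%), the lowest value being that of VIT_06s0009g03010, not well above background there. Without that locus the range on labelled OX.CARPO 3 was 5.31% to 11.7%. On all 8, labelled OX.CARPO 3 was the lowest array and labelled OX.CARPO 2 the highest of its group, and control 3 was the highest control on 7. The share of all probes with this order was not counted. The same order of the labelled arrays was seen at 2 loci given below that are not among the chosen copies. They are VIT_06s0009g03000, which is numbered between copies, and VIT_14s0068g00930. Across the 7 loci that were well above background on all 6 arrays, the SD of the log2 deviation was 0.37, 0.08 and 0.45 on labelled OX.CARPO 1, 2 and 3, against 0.11 to 0.35 on the controls. Of the 9 loci tested, 8 were below all controls on labelled OX.CARPO 1, 9 on labelled OX.CARPO 2 and 8 on labelled OX.CARPO 3, where 33.2%, 34.7% and 42.5% of probes with 6 usable spots were. Likewise 8 were under 50% of the control mean on labelled OX.CARPO 1, 5 on labelled OX.CARPO 2 and 8 on labelled OX.CARPO 3, where 12.2%, 10.1% and 18.9% of those probes were. The median log2 deviation from the control mean over all probes tested was 0.07, -0.02 and -0.07 on these arrays.

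**Figure D2:**
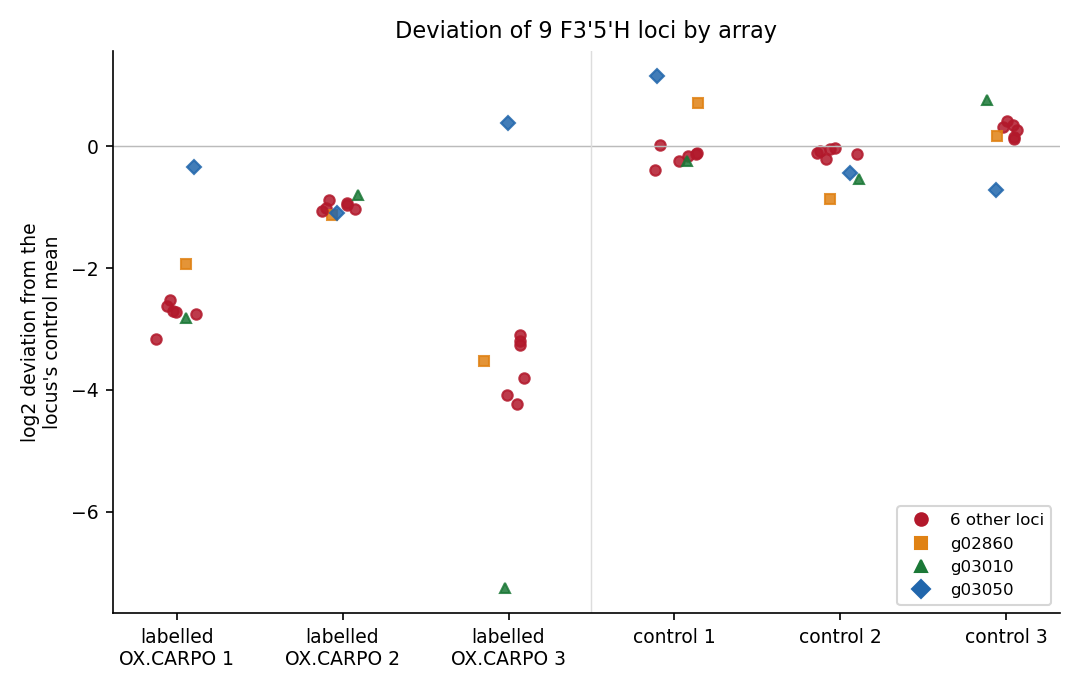
Log2 deviation of the 9 tested F3'5'H loci from their own control mean, for each array on the horizontal axis, with 1 point per locus. On labelled OX.CARPO 2 the 8 loci without overlap lie together between -1.12 and -0.81, on labelled OX.CARPO 1 between -3.16 and -1.94, and on labelled OX.CARPO 3 between -7.25 (g03010) and -3.09. The points of g03050 lie above them on labelled OX.CARPO 1 and 3.

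Because the 8 loci were lower on every labelled array than on every control, a negative difference within a scan was fixed in advance. Its size differed between the scans that held both groups. In scan 1, labelled OX.CARPO 1 minus control 1 gave log2 differences of -2.91 to -2.34 over the 8 loci. In scan 2, labelled OX.CARPO 2 minus the mean of controls 2 and 3 gave -1.21 to -0.77. Scan 3 held labelled OX.CARPO 3 alone, so that its scan, its slide and its leaf cannot be told apart. A scan or slide block fits labelled OX.CARPO 3 exactly, so that only labelled OX.CARPO 1 and 2 enter the difference. Such a block therefore does not stand apart from leaving out that array. With scan as a block the 8 differences were -1.82 to -1.57, with limma adjusted p of 0.102 to 0.214. In that fit VIT_06s0009g03050 was also lower, at -0.94 (SE 0.30, limma unadjusted p 0.0278, limma adjusted p 0.183).

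Single arrays decided how far the cluster lay from the threshold. Without labelled OX.CARPO 3, which stood apart, the 8 differences were -2.02 to -1.53, all 8 had an unadjusted p under 0.05 (11.1% of probes tested were lower at that level), and 0 passed the adjusted threshold as lower, against 0.263% of probes tested (limma adjusted p 0.140 to 0.249). Without labelled OX.CARPO 2 the differences were -5.03 to -2.73, and 3 loci passed as lower, where 0.396% of probes tested did: VIT_06s0009g02810 (-3.48), VIT_06s0009g02840 (-2.95) and VIT_06s0009g02970 (-2.86), each with a limma adjusted p of 0.0373. Leaving out any other array gave 0. The processed table that the authors deposited lists 8 of the loci, all but VIT_06s0009g02910 and VIT_06s0009g03050, and 2 passed there as lower, VIT_06s0009g02920 (-1.67, limma adjusted p 0.0462) and VIT_06s0009g02970 (-1.69, limma adjusted p 0.0469), where 7.87% of its probes did. Its column for labelled OX.CARPO 3 was, within 0.1% at all 8 loci, the scaled mean of the scanner signals of labelled OX.CARPO 1 and 2. The same held at 99.97% of its 23065 probes. That fit therefore counted 2 arrays as 3 replicates, and its limma adjusted p cannot be taken at face value. Without that column 0 of the 8 loci passed. For VIT_06s0009g02880 that column holds an intensity of 6432, between 2422 and 8602 for labelled OX.CARPO 1 and 2, whereas in the scanner files labelled OX.CARPO 3 lay below both at each of the 8 loci.

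**Figure D3:**
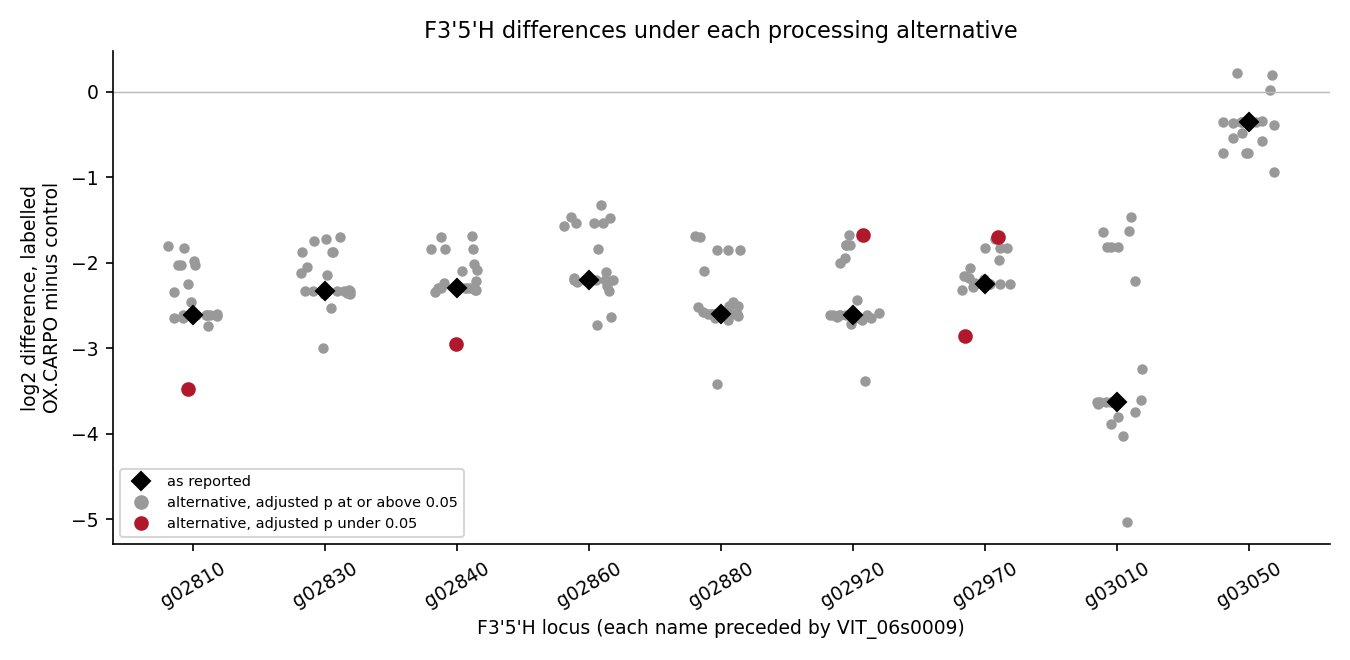
Log2 difference, labelled OX.CARPO minus control, of the 9 tested F3'5'H loci as reported (black diamonds) and under each processing alternative or with 1 array left out (circles, red where the limma adjusted p was under 0.05). The 8 loci from g02810 to g03010 lie at -1.33 or below in all of these, and 4 of the loci have a red circle. The red circle of g02920 comes from the deposited table, as does 1 of those of g02970. The circles of g03050 lie on both sides of 0.

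By locus number, other loci lie between the F3'5'H copies. Between the numbers 2700 and 3200 of the same name series there were 31 other loci, given here without gene names, of which 20 were tested. Their median log2 difference was 0.07, and 0 passed the adjusted threshold. Without overlap 3 were lower and 1 higher, beside 13.7% and 10.5% of all probes tested with 6 usable spots. At least 4-fold lower was 1, beside 2.48% of all probes tested. The 5 that were brightest among those well above background on all 6 arrays had differences of -0.42 (VIT_06s0009g02760), -0.09 (VIT_06s0009g02700), 0.68 (VIT_06s0009g02790), 0.07 (VIT_06s0009g03080) and -0.88 (VIT_06s0009g02780), with limma adjusted p of 0.237 to 0.914. Of the 8 that lie between the first and the last F3'5'H copy, 6 were tested, and their differences ran from -2.50 to 0.70 with a median of 0.27. The one at -2.50 was VIT_06s0009g03000, chosen here after its values were seen. Its log2 level was -1.75, -0.34 and -3.69 on labelled OX.CARPO 1, 2 and 3, against 0.10, 0.51 and 1.10 on controls 1, 2 and 3, with no overlap and the same order of the labelled arrays as in the 8 copies (SE 0.84, limma adjusted p 0.249).

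**Figure D4:**
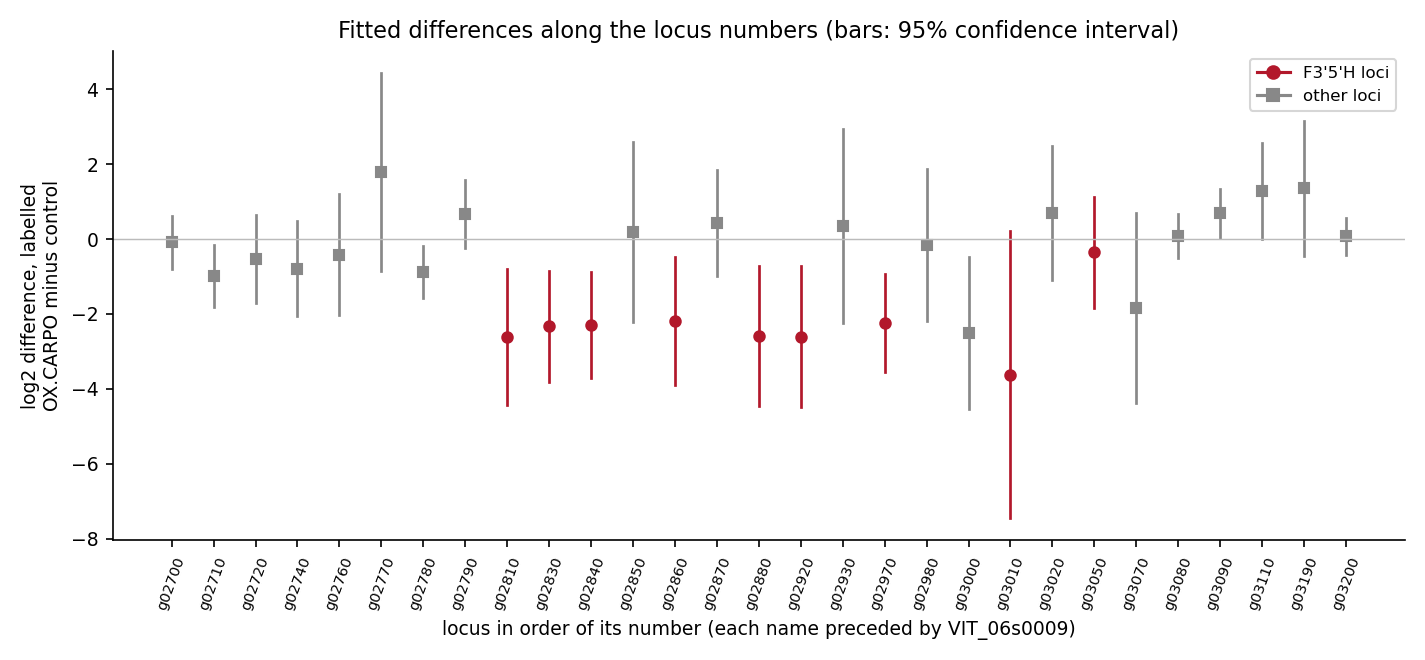
Fitted log2 difference, labelled OX.CARPO minus control, with its 95% confidence interval, for every tested locus in order of the number in its name. F3'5'H loci are red and other loci grey. From g02810 to g03010 the red points lie between -3.62 and -2.20, and of the grey points among them only g03000 lies as low.

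The flavonoid route around this step was read from a list of 22 loci, taken as its early enzymes, the flavonoid 3'-hydroxylase step, the anthocyanin, flavonol and tannin branches and the MYB regulators of anthocyanin synthesis. The roles come from knowledge of the grapevine annotation outside the files, so that the loci are not named as genes. Of 22, 16 were tested, 14 of them with a difference below 0. Of the others, 5 were too dim and 1 had too few usable spots. None (0) passed the adjusted threshold, the lowest limma adjusted p being 0.159, and at an unadjusted p under 0.05 there were 5 lower and 1 higher. Of 13 with 6 usable spots, 5 were lower and 1 higher without overlap, beside 13.7% and 10.5% of all such probes tested. The median log2 difference was -1.05, against -2.33 for the 9 F3'5'H loci and 0.0038 for all probes. The farthest below was VIT_14s0068g00930, with a log2 level of 1.02, 2.75 and -1.24 on labelled OX.CARPO 1, 2 and 3, against 3.95, 3.75 and 3.68 on controls 1, 2 and 3, a difference of -2.95 (SE 0.95, limma adjusted p 0.238). The farthest above was VIT_18s0001g03430, with -0.53, -0.54 and 1.38, against -1.75, -1.16 and -1.78 in controls, a difference of 1.67 (SE 0.57, limma adjusted p 0.257). No test of the difference between this list and the F3'5'H cluster was made.

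**Figure D5:**
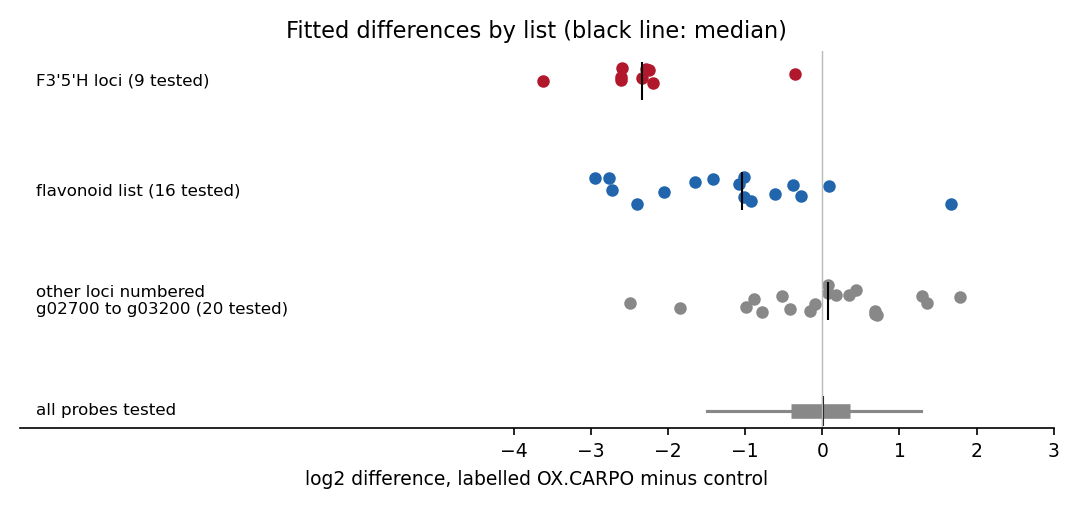
Fitted log2 differences, labelled OX.CARPO minus control, of the tested F3'5'H loci, of the flavonoid list, of other loci numbered near the cluster and of all probes tested, the last drawn as the 5th to 95th percentile (line) and the quartiles (bar). Black lines are medians, at -2.33, -1.05, 0.07 and 0.0038.

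The mean profile of the 8 F3'5'H loci that were well above background on all 6 arrays was set against 18921 other probes seen on all 6 arrays. The highest Pearson's r over the 6 arrays were 0.998 for VIT_04s0008g03950, 0.998 for VIT_15s0048g03000 and 0.997 for VIT_17s0000g06440. They share the same 6 arrays and the low values of labelled OX.CARPO 1 and 3. Of the 18921 probes, 361 had an r over 0.95. The profile includes VIT_06s0009g03050, whose groups overlap, and leaves out VIT_06s0009g03010, so it is not that of the 8 lower copies. VIT_04s0008g03950 had a log2 level of 0.60, 2.86 and -1.12 on labelled OX.CARPO 1, 2 and 3, against 4.96, 4.63 and 5.22 on controls 1, 2 and 3.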

How the data were processed

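Groups and replicate numbers came from the sample titles. The scanner files hold spot intensity from Agilent Feature Extraction 10.5.1.1, per the file headers. That software corrects background within each array and marks spots as well above background, saturated or outlying, as 0 or 1 values. The authors also deposited a table of processed intensity for 23065 probes, with column medians of 490 to 506. Its 5 columns other than labelled OX.CARPO 3 were, at 99.8% to 99.9% of probes, a multiple of the scanner signal within 0.1%. How it was made is not given in the sources used here.

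From the scanner files, each processed signal was divided by the 75th percentile of its array and put on the log2 scale, control spots left out. Outlier spots were set to missing, with at least 2 usable spots per group. Probes well above background on all arrays of 1 group or both were tested with limma 3.58.1 in R 4.3.3, with no covariate and Benjamini-Hochberg adjustment over 23752 probes at 0.05. Of these, 19 passed (0.08%), 15 lower and 4 higher. The fit was tested on simulated data with equal spread in both groups, whereas here the arrays labelled OX.CARPO had the wider spread. The 75th percentile was 668 to 1234, and 68.4% to 74.5% of probes per array were well above background.

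Loci, lists and tests were chosen with earlier results of these data known. All 10 copies are named. Others are the CARPO probe, the farthest locus of the flavonoid list in each direction, up to 5 bright loci near the cluster and the 3 most alike in profile. Alternatives were normexp (offset 50, on median signals), quantile, median and seen-probe scaling, no filter and a filter on all 6 arrays, trended robust variance, array weights, outliers kept, the deposited table, replicate, slide and scan blocks, and leaving out each array.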

Additional observations from a re-analysis of the deposited data

How the results depend on the processing

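At the 8 lower F3'5'H loci the difference stayed below 0 wherever it was tested, as their groups fix when arrays are left out, and 0 loci passed the threshold except in the deposited table (2) and when 1 array was left out (0 to 3, the 3 without labelled OX.CARPO 2). The difference of VIT_06s0009g03050, -0.36, was 0.19 with normexp, -0.72 with slide and -0.94 with scan as a block, and lay between -0.72 and 0.22 with an array removed, 0.22 without control 1 and 0.02 without labelled OX.CARPO 2. That of VIT_08s0007g07670, 0.47, was -0.96 with array weights, -1.0 with slide and -0.88 with scan as a block, and -1.0 to 1.29 when 1 array was left out (-0.03 without control 1, -1.0 without labelled OX.CARPO 3).

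The count of all probes past the threshold, 19, was 0 with normexp (1536 at an unadjusted p under 0.05 by limma) and 0 with no filter (3404). It was 7 with the filter on all 6 arrays and 123 with array weights. With slide as a block it was 69 and with scan 45, fits in which labelled OX.CARPO 3 does not enter the difference. In the deposited table, whose column of labelled OX.CARPO 3 is the scaled mean of 2 other arrays, it was 3114. Without that column it was 94. When 1 array was left out it was 0 to 116. The cause of these changes was not tested. Normexp and no filter also moved the median difference of all probes to 0.13 and 0.12. The flavonoid list gave 0 to 1 when 1 array was left out, the 1 being without labelled OX.CARPO 2. With the replicate number as a block, 0 probes and 0 F3'5'H loci passed (3096 and 7 at an unadjusted p under 0.05), the median difference of the 8 loci being -2.46. Deviations from the group means correlated at 0.25, 0.05 and -0.01 between arrays of 1 number, and at -0.33 to 0.28 otherwise. So few correlations cannot decide whether arrays of 1 number share more than that number. The deposited table without its column of labelled OX.CARPO 3, and the scanner values at its probes (22 of all, 0 F3'5'H), were chosen after seeing the data. Signal over background limits what can be read of VIT_06s0009g02910, of the dim VIT_06s0009g03050 and of VIT_06s0009g03010 on labelled OX.CARPO 3.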

Other observations

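Among the loci numbered between the F3'5'H copies, 2 that were well above background on all 6 arrays had an order of arrays other than that of the 8 lower copies. They were chosen after their values were seen, and no test of the order was made. VIT_06s0009g02850 had a log2 level of -2.51, -4.50 and -0.90 on labelled OX.CARPO 1, 2 and 3, against -1.66, -3.08 and -3.72 on controls 1, 2 and 3. VIT_06s0009g02980 had -2.57, -4.34 and -1.29, against -1.62, -2.84 and -3.28 on controls. At each of these loci labelled OX.CARPO 3 was the highest array and labelled OX.CARPO 2 the lowest.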
